A study of Mus musculus with 40 samples.

Results

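H3K4me3 was compared between K27M and control oligodendrocyte progenitor cell (OPC) cultures of the mouse telencephalon. The libraries were taken by their labels alone: every H3K4me3 peak list from the tissue labelled cortex, 3 from K27M cultures and 3 from control cultures, paired by the culture numbers 59, 60 and 61. These 6 are among 20 libraries with a peak list, within 40 samples in all. K27M cultures came from pups carrying a conditional H3-3a-LSL-K27M allele at the endogenous histone H3.3 gene (H3f3a in the annotation) together with hGFAP-Cre, which recombines in radial glia and their descendants, so the mutant allele was switched on in the descendants of cells that had expressed the driver. Control cultures came from littermates. For the single-cell libraries of this mouse line the study's methods describe such littermates as lacking Cre, with the targeted allele silent behind its stop cassette, and state that the Cre construct holds Prm1 promoter sequence. Pups were taken at postnatal days 5 to 7, and dorsal telencephalon tissue (cortex, corpus callosum and hippocampus) was pooled over pups of both sexes by genotype. Cells of both genotypes were selected with an antibody to PDGFRa after depletion with the lectin BSL1 and kept in proliferation medium with no differentiation step, so each library stands for a pool of animals and the p-values measure the spread between such pools.

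H3K4me3 is laid down by the SET1 and MLL (KMT2) methyltransferases and marks the start sites of active and poised genes. At the promoters of many developmental regulators in progenitor cells it lies together with H3K27me3, the mark of Polycomb repressive complex 2 (PRC2), and such promoters are called bivalent. The K27M substitution replaces the lysine that PRC2 methylates and is known for lowering H3K27me3 over most of the genome.

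Peaks of the 6 libraries were merged into 40477 autosomal regions, of which 18219 were promoter regions, overlapping the window from 2000 bp before to 1000 bp after an annotated start, and 22258 were distal. A region was called gained when all 3 K27M libraries held a peak there and no control library did, and lost in the reverse case. In all, 184 regions were gained, 0.455% of all regions, and 5 were lost, 0.0124%. Gains were more frequent at distal sites (161 regions, 0.723%) than at promoter regions (23 regions, 0.126%), and all 5 losses were distal (0.0225% of distal regions). By contrast 14329 regions held a peak in all 6 libraries, 67.9% of the promoter regions and 8.76% of the distal ones.

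Sequence is given for 4 sites that the results turn on, each 200 bp long from GRCm38, written 5′ to 3′ in lower case with every CpG in capitals. The first lies inside the gained promoter region of Asb4 (chr6:5390996-5391195, plus strand). The next, near Adgrl2 (chr3:148977200-148977399, plus strand), and the one after it, near Igbp1b (chr6:138708808-138709007, plus strand), are centred on the summits of gained distal regions. The last lies in the stretch of the Igf2bp3 promoter region that every K27M library covered and no control library did (chr6:49211079-49211278, minus strand). None of them overlaps an annotated exon.
Asb4 gained promoter: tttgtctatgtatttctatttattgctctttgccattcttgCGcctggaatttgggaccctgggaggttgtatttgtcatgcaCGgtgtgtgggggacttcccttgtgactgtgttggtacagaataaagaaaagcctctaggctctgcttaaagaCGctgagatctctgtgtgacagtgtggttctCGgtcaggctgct
Adgrl2 gained distal: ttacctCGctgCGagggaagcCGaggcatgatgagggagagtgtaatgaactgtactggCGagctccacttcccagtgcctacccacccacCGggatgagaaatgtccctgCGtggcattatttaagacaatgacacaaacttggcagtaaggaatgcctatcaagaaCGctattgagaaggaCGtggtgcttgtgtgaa
Igbp1b gained distal: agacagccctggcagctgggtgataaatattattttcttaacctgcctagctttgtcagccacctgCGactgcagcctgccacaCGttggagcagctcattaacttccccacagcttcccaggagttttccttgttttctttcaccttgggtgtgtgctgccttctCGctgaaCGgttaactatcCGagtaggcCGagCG
Igf2bp3 K27M-covered stretch: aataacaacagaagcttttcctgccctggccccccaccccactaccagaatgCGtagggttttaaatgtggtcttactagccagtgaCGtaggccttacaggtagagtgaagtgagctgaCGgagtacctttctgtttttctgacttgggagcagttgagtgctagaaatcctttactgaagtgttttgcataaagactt
These stretches held 4, 8, 7 and 3 CpGs, or 2, 4, 3.5 and 1.5 per 100 bp, beside a median of 2.4 per 100 bp over 32851 RefSeq promoters of the same assembly.

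The 6 libraries differed in strength. Control libraries held 21994, 27395 and 30413 autosomal peaks in cultures 59, 60 and 61, and K27M libraries 21419, 27225 and 29969. Median fold enrichment over input, the ratio of ChIP to local background that the peak caller gives, was 3.55, 13.5 and 9.80 in control and 4.97, 9.02 and 7.75 in K27M. Both libraries of culture 59 were thus the weakest, and K27M exceeded control in culture 59 and fell below it in the other cultures. In the submitters' own listing the libraries of culture 59 had the most reads. The controls of cultures 60 and 61 had a larger share of duplicate reads than their K27M partners. This share was largest in the culture 60 control, where duplicates were the majority of reads. The part of read number or duplicates in these results was not tested. A peak list carries no read depth, so a missing peak means that none was called, not that the mark was absent, and in pooled cells fewer marked cells and less mark per cell cannot be told apart.

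Promoters of OPC genes were marked in both genotypes. Of 14 OPC markers, 12 held a peak in all 6 libraries. Of 20807 autosomal protein-coding genes, 12357 did so and 14068 held a peak in any library. The peak at Pdgfra, the receptor used for selection, covered 13272, 15738 and 15030 bp in control and 13706, 14294 and 15982 bp in K27M. Markers of other cell types varied: 8 of 11 neuron markers, 6 of 11 astrocyte markers, 7 of 13 oligodendrocyte maturation genes, 2 of 9 endothelial and mural markers and 1 of 5 fibroblast markers held a peak in all 6 libraries, and of 9 microglia markers 8 had no peak in any library. The promoter of H3f3a, the targeted gene, held a peak in all 6 libraries, of 2947, 3534 and 3822 bp in control and 3838, 4237 and 4336 bp in K27M. Peaks do not distinguish the alleles. Within 10 Mb of H3f3a lay 378 regions, of which 5 were gained (1.32%) and 0 were lost. Over chromosome 1, which holds H3f3a, 18 of 2603 regions were gained (0.692%), and over all regions 0.455%.

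The balance of promoter regions held by K27M alone and by control alone had no shared direction over the pairs. At promoter regions culture 59 held 765 peaks in K27M alone and 233 in control alone, whereas culture 60 held 921 and 1642 and culture 61 held 758 and 1522. The log2 ratio of these counts was 1.72 in culture 59, −0.83 in culture 60 and −1.01 in culture 61 (mean −0.04 ± 1.52 SD, n = 3 pairs, two-sided exact sign-flip permutation test, p = 1). At distal regions the counts were 1569 against 1648, 5078 against 4868 and 4993 against 4473, with log2 ratios of −0.07, 0.06 and 0.16 (exact p = 0.75). With 3 pairs this test cannot go below 0.25.

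**Figure D1:**
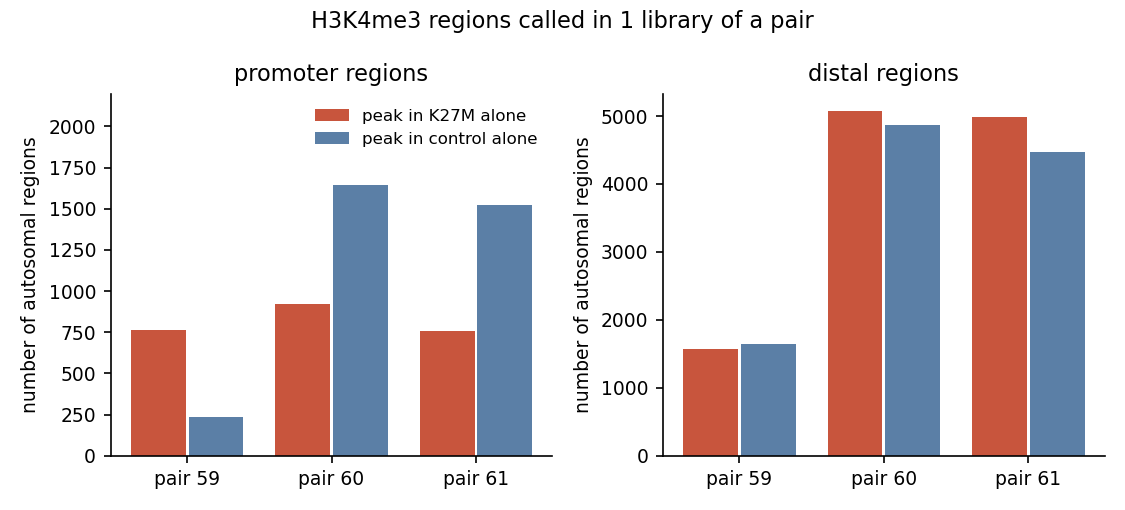
Number of autosomal regions (y axis) with an H3K4me3 peak in 1 library of a pair alone, by culture pair (x axis), for promoter regions (left) and distal regions (right); bars are counts with no error. At promoter regions K27M led in pair 59 (765 against 233) and control led in pairs 60 (1642 against 921) and 61 (1522 against 758), while the distal bars of each pair were close in height.

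Promoter H3K4me3 covered slightly more sequence in K27M in every pair. Its length was 23.8, 32.2 and 33.3 Mb in control and 26.8, 33.7 and 35.7 Mb in K27M, log2 ratios of 0.17, 0.07 and 0.10 (mean 0.11 ± 0.05 SD, n = 3 pairs, exact sign-flip p = 0.25, the smallest possible). The groups overlapped when the pairing was ignored (exact permutation test over 6 libraries, p = 0.5). Promoter peaks were fewer in K27M in every pair, with a mean log2 ratio of −0.07 ± 0.01 (SD, n = 3 pairs, exact p = 0.25). Distal covered length differed by 0.04 ± 0.05 (SD, n = 3 pairs, exact p = 0.5). Distal peaks were more numerous in K27M in every pair, with a mean log2 ratio of 0.05 ± 0.03 (SD, n = 3 pairs, exact p = 0.25), but with peaks of −log10 p of at least 6 alone the mean was −0.0196.

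The gained promoter regions were short beside other promoter regions. Their length ran from 428 to 2558 bp with a median of 888 bp, beside 2057 bp over all promoter regions, and they held 1.64 CpGs per 100 bp at the median, beside 3.52. At the level of genes, 19 promoters were gained of 19180 with a peak in any library (0.0991%) and 1, that of the unclassified transcript Gm38359, was lost (0.00521%). Of the 19, 8 were protein-coding: Clrn1, Cbl, Mlc1, Prm2, Efcab1, Pcdhb4, Pcdhb20 and Pcdhb21. The last 3 belong to the clustered protocadherin-beta genes, which encode neuronal adhesion molecules. Of the 19, Cbl, Gm25189, Gm37558, Gm4165 and Gm40841 overlapped no gained region. They were counted because K27M peaks, and no control peak, reached a promoter window of the gene. Conversely, Asb4, Sox5, Rasa1, Ank3, Dhx32 and Prm1, whose gained regions are described below, are not among the 19. A gene was counted when all 3 K27M libraries held a peak in a promoter window of the gene and no control library did in any. A gene with several starts was thus left out if a control library held a peak in another of its windows. A gained region therefore does not mean that the gene had no promoter H3K4me3 in control.

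The gained region with the highest minimum enrichment lay at an annotated start of Asb4, which encodes a substrate adaptor of ubiquitin ligases (chr6:5389786-5392343). Its fold enrichment was 8.13, 15.8 and 8.91 in K27M cultures 59, 60 and 61, with peaks of 1917, 2558 and 1541 bp. No control library held a peak in this region, although Asb4 is not among the 19 genes. The stretch shared by all 3 K27M libraries was 1529 bp long and ran from 542 bp before to 986 bp after the RefSeq start. H3K27me3 peaks lay on this region in 2 control libraries and in 0 K27M libraries.

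A start of Sox5, a transcription factor of the oligodendrocyte lineage, was gained with fold enrichments of 3.93, 5.47 and 5.95 (chr6:144202981-144204768). This region carried H3K27me3 in 3 control libraries and 1 K27M library. Mlc1, an astrocyte membrane protein gene, was gained at 4.18, 5.20 and 3.44, and Clrn1, which encodes the membrane protein clarin 1, at 3.53, 4.79 and 3.87. Both stayed below the enrichment at Asb4 in every culture. The remaining named promoter regions were those of Pcdhb21 (4.11, 6.11 and 6.10), Pcdhb4 (3.05, 3.82 and 4.47), Rasa1, a Ras GTPase-activating protein gene (2.97, 4.69 and 4.38), Ank3, the ankyrin G gene of axon initial segments (2.95, 3.70 and 5.16), and Dhx32, a helicase gene (2.94, 2.97 and 6.23).

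The gained region over Prm1 and Prm2, the protamine genes of sperm chromatin, stood apart in its p-value (chr16:10796021-10796908). Fold enrichment was 3.58, 15.2 and 19.7, with −log10 p of 122, 348 and 480. Peaks of the same library within 10% of that enrichment had a highest −log10 p of 73.3, 124 and 231, so the region exceeded all of them in each culture, and in culture 61 it had the highest −log10 p of 29969 peaks. At a given enrichment the p-value grows with the number of reads in both ChIP and background. Its edges fell within 84 bp of each other at the left and 67 bp at the right over the 3 libraries, and it covered the RefSeq Prm1 gene (chr16:10796332-10796823). Since the Cre construct holds Prm1 sequence, reads from the construct and from the locus cannot be told apart in a peak list, and the counts above include this region. Without it, 183 regions, 22 promoter regions and 17 genes were gained.

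**Figure D2:**
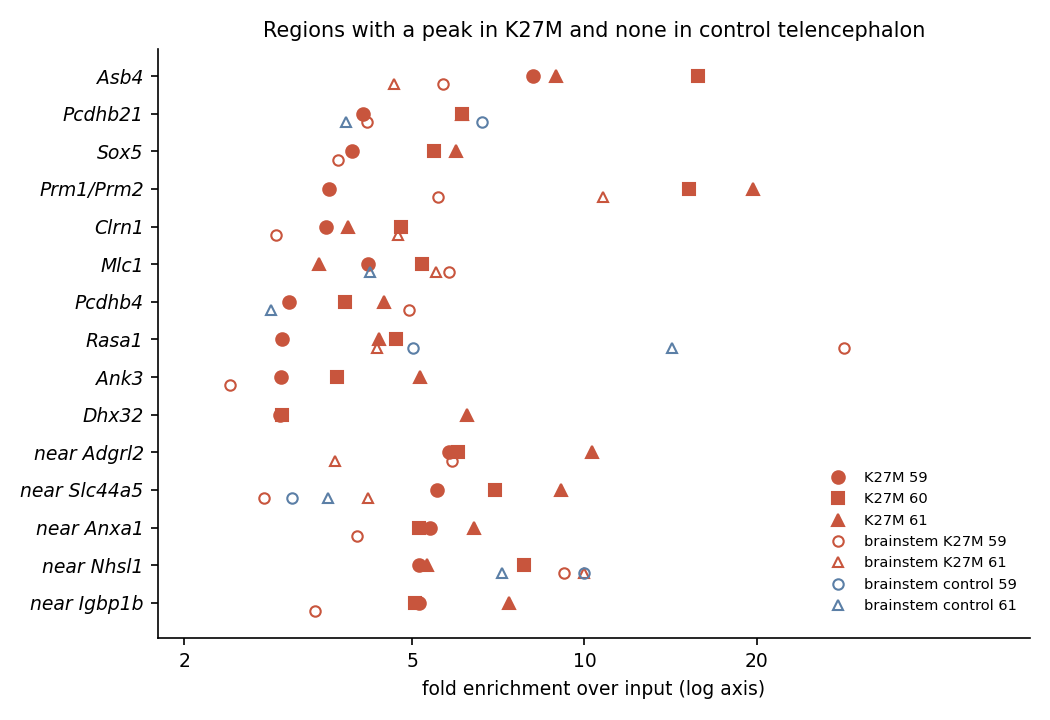
Fold enrichment over input (x axis, log scale) of the 15 named gained regions (y axis, 10 promoter regions above 5 distal ones); filled symbols are telencephalon K27M libraries, open symbols brainstem K27M (red) and control (blue) libraries, and a missing symbol means no peak. The Asb4 region reached 8.13 or more in all 3 telencephalon K27M libraries, and the regions of Asb4, Prm1/Prm2, Clrn1 and Adgrl2 also had brainstem peaks in both K27M libraries and in neither control.

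Gained distal regions lay mainly in introns (86 of 161) and between genes (60), with 15 in exons. They were longer than distal regions as a whole (median 760 against 574 bp) and had 1.27 against 1.43 CpGs per 100 bp. The nearest coding start was 39349 bp away at the median, beside 20396 bp for all distal regions. The lowest of the 3 fold enrichments ranged from 1.96 to 5.80 with a median of 2.86. These medians describe regions chosen partly by where peaks could be called.

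The leading distal gain, in an intron 11382 bp from the nearest coding start, that of Adgrl2, a latrophilin adhesion receptor gene, had fold enrichments of 5.80, 6.02 and 10.3 (chr3:148976945-148977934). The region nearest Igbp1b was intergenic and had 5.14, 5.07 and 7.40, and that near Nhsl1, in an intron, had 5.13, 7.84 and 5.30. A region in an exon near Slc44a5, a choline transporter-like gene, had 5.53, 6.98 and 9.08, and one far from any coding start, with Anxa1 the nearest, had 5.37, 5.13 and 6.42. All 15 values exceeded 5, but these 5 regions were chosen by the highest value of their lowest fold enrichment. The 5 lost distal regions lay near G2e3, Cdkal1, Lipc, Tspan33 and Pank1, with control fold enrichments between 2.49 and 6.38.

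Brainstem OPC libraries of cultures 59 and 61, which the choice of regions did not use, showed the same pattern at a minority of gained regions. Of the 184, 12 (6.52%) held a peak in both brainstem K27M libraries and in neither control, beside 312 of all 40477 regions (0.771%). Without the Prm1 and Prm2 region they were 11 of 183 (6.01%). The share over all regions was lowered by the 14329 with a peak in all 6 telencephalon libraries, where it was 0.0628%. It was 1.06% over all distal regions. Over the 1828 regions held by K27M alone in cultures 60 and 61, which include the 184, it was 3.12%. These 12 were Asb4 (5.65 and 4.66), Prm1 and Prm2 (5.55 and 10.8), Clrn1 (2.89 and 4.73) and regions near Adgrl2, Fign, Mki67, Lgr5, Rorb, B3gat2, Pdzd2, Cox10 and Gm4340. The region near Fign covered 1760, 1888 and 1617 bp in telencephalon K27M and 1539 and 1740 bp in brainstem K27M. By contrast the Nhsl1, Slc44a5 and Rasa1 regions held peaks in all 4 brainstem libraries, and Pcdhb21 in both brainstem controls. Over all 184 gained regions the brainstem pairs went in opposite directions. In culture 59 a peak was called at 25% in control and 71.7% in K27M, but in culture 61 at 45.7% and 25.5%. For all 40477 regions these shares were 51.9% and 61.6% in culture 59, and 51.3% and 43% in culture 61. The brainstem control and K27M libraries held 24422 and 28508 peaks in culture 59, and 23904 and 20279 in culture 61. The part of peak number in these shares was not tested. None of the 5 lost regions had a peak in a brainstem control. The brainstem libraries share culture numbers with the telencephalon ones, so they may come from the same litters, and 2 pairs allow no p below 0.5.

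H3K27me3, measured in the same cultures, was called at no more than 4 of the 19 gained genes in any library. Among the 19 gained genes, 0%, 21.1% and 21.1% carried a promoter H3K27me3 peak in control cultures 59, 60 and 61, against 9.09%, 23.3% and 26.2% of the 15549 genes with H3K4me3 in all 6 libraries. In K27M cultures the shares were 0% in each, against 5.74%, 11.8% and 10.1%. The mean difference was −5.48 ± 3.44 percentage points in control and −9.20 ± 3.12 in K27M (SD, n = 3 cultures, exact sign-flip p = 0.25 for each, the smallest possible). With 19 genes, 1 gene is worth several points. The 19 include Cbl, Gm25189, Gm37558, Gm4165 and Gm40841, which overlapped no gained region, and the shares without these genes were not computed.

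Cultures 60 and 61 alone gave many more differences. Culture 59 did not separate the genotypes at the regions held by K27M alone. At nearly all the regions held by control alone it had no peak to lose. In both cultures 60 and 61, 1828 of the 40477 regions held a peak in K27M alone. At these regions the culture 59 control library held a peak in 888 (48.6%) and the culture 59 K27M library in 771 (42.2%), so the genotypes were not separated there. Conversely 1521 of the 40477 regions held a peak in control alone in cultures 60 and 61. Of these, 1513 (3.74% of all regions) had no peak in either library of culture 59. Without a culture 59 control peak such a region could not count as lost over 3 pairs. Of those 1513, 541 were promoter regions, of 18219 promoter regions in all. At 34.8% of these 541 all 6 libraries carried H3K27me3, beside 7.92% of all promoter regions.

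This pattern was held by 381 genes, 1.99% of the 19180 with a peak in any library. They included 20 of 39 Hox genes (51.3%), the homeobox genes Nkx2-1 and Pax7, and the fetal RNA-binding protein genes Lin28a and Igf2bp1. The Lin28a peak covered 1757 and 1644 bp in control cultures 60 and 61, at fold enrichments of 9.08 and 10.2, and was called in no K27M library. Igf2bp1 covered 2772 and 2534 bp at 8.29 and 5.12. Without the culture 59 pair, gained promoter regions numbered 229 and lost ones 541, so the balance of gains and losses at promoters, 23 against 0 over all 3 pairs, turned to losses. Whether the lower enrichment of culture 59 or of the K27M libraries in cultures 60 and 61 had a part in these counts was not tested.

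Peak width was then compared over the 14329 regions with a peak in all 6 libraries, as the covered length per region on the log2 scale with each library centred on its median. Before centring, the median region was 1.11, 1.08 and 1.08 times as long in K27M as in control in cultures 59, 60 and 61. Median fold enrichment was 1.54, 0.518 and 0.651 times that of control, so enrichment differed in opposite directions between cultures while width was greater in K27M in each. By limma with culture as a block, 0 regions passed an adjusted p of 0.05 for width (1089 had an unadjusted p below 0.05, 7.60%) and 0 for fold enrichment (1274, 8.89%), or 0% of the regions either way. The smallest adjusted p-values were 0.121 and 0.116. No other tool was run. What follows is therefore a description of regions that moved by at least 1.25 times in the same direction in all 3 pairs, with no call.

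By that description 145 regions were wider in K27M (1.01% of 14329) and 83 were narrower (0.579%). Members just inside the limit had a smallest fold of 1.25 for both lists, as did those just outside. Fold enrichment was higher at 323 regions (2.25%) and lower at 289 (2.02%). Wider regions were less often promoters (90 of 145, 62.1%) than all regions compared (86.4%) and held 2.56 against 3.62 CpGs per 100 bp. Narrower regions were CpG-richer, with 4.26 per 100 bp.

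**Figure D3:**
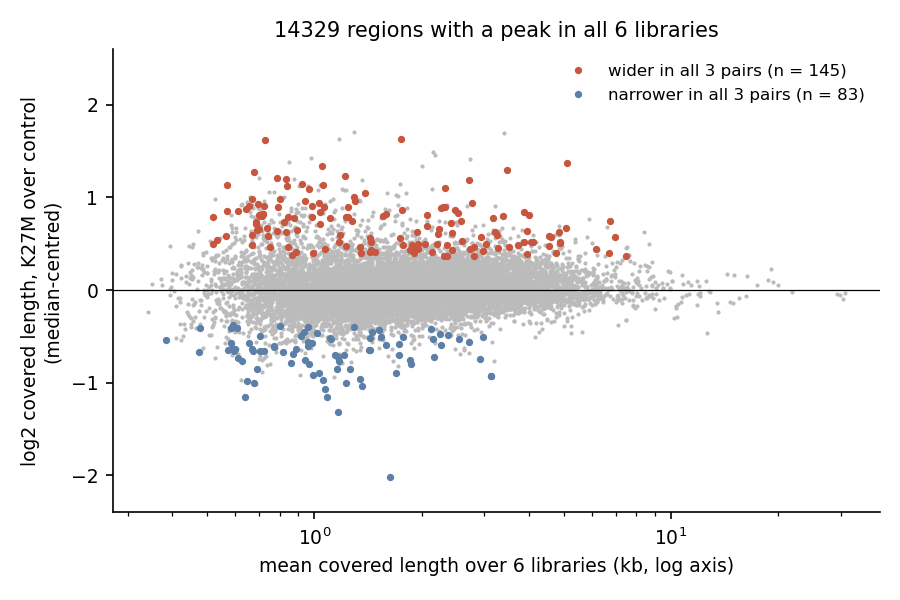
Log2 covered length of K27M over control (y axis, mean of 3 pairs after median-centring) against mean covered length over 6 libraries (x axis, kb, log scale) for 14329 regions; grey points are all regions, red the 145 wider and blue the 83 narrower by at least 1.25 times in all 3 pairs. The narrower region lowest on the plot is that of Tfap2a, at −2.02.

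Among the named wider regions the largest fitted change was at Igf2bp3, which encodes an oncofetal RNA-binding protein of growth-related mRNAs. Its region (chr6:49209445-49218755) was covered over 1421, 4882 and 4020 bp in control and 8227, 8245 and 9287 bp in K27M, with no overlap between groups. The fitted log2 change was 1.37 (SE 0.31, limma adjusted p = 0.566), and it was 2.38, 0.65 and 1.08 by pair. Altogether 3092 bp were covered in all K27M libraries and in no control, the longest stretch running from 2794 to 4757 bp downstream of the RefSeq start. H3K27me3 lay on the region in all 6 libraries. In the brainstem the covered length was 2407 and 2564 bp in control and 9311 and 8143 bp in K27M.

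Pbx3, a homeodomain cofactor of Hox proteins, was covered over 2393, 2940 and 3454 bp in control and 4589, 6131 and 6100 bp in K27M (log2 change 0.81, SE 0.09, adjusted p = 0.347). Brainstem values were 3457 and 3540 bp against 6206 and 6022 bp. The groups did not overlap in either tissue. E130308A19Rik was covered over 2243, 2612 and 2499 bp in control and 3928, 5000 and 5166 bp in K27M, but in the brainstem K27M values of 5033 and 3822 bp lay on both sides of control values of 3878 and 4041 bp. Grik2, a kainate receptor subunit gene, was covered over 1333, 1707 and 1471 bp against 2601, 2843 and 3175 bp. Gpam, a glycerolipid synthesis gene, was covered over 700, 486 and 941 bp against 1414, 1991 and 1571 bp. Neither Grik2 nor Gpam kept groups apart in the brainstem. Greater width did not go with higher enrichment in every culture. The highest fold enrichment at Pbx3 was 3.18, 135 and 67.6 in control and 5.36, 39.6 and 30.7 in K27M. Igf2bp3, E130308A19Rik and Grik2 likewise were higher in K27M in culture 59 and lower in cultures 60 and 61, as were the library medians. At Gpam K27M was higher in cultures 60 and 61.

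The leading narrower region was at Tfap2a, the AP-2 alpha factor of neural crest and ectoderm (chr13:40729176-40735084). It was covered over 1048, 4980 and 5909 bp in control and 353, 1042 and 1643 bp in K27M (log2 change −2.02, SE 0.15, adjusted p = 0.121). Without the culture 61 pair, with regions merged again from the other 4 libraries, the change was −1.20. In each culture K27M was lower, although the groups overlapped because the culture 59 control was short. Only 275 bp were covered in all controls and in no K27M library, and these ran from 155 bp before to 119 bp after the RefSeq start. In the brainstem 5325 and 2512 bp in control stood against 711 and 429 bp.

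Fezf2, a factor of corticofugal neurons, was covered over 851, 2726 and 2786 bp in control and 503, 1408 and 1394 bp in K27M, and had no peak in either brainstem K27M library. Onecut2, a homeodomain factor, was covered over 2491, 5045 and 5623 bp against 1575, 2899 and 2952 bp, and in the brainstem over 4534 and 3627 bp against 2284 and 1745 bp. Irx5, an Iroquois factor, was covered over 2085, 5643 and 5975 bp against 1222, 3131 and 3509 bp. Unlike the others, the Irx5 region was fully covered, at 6037 bp, in all 4 brainstem libraries. Ptk2b, a calcium-activated tyrosine kinase gene, was covered over 657, 2219 and 2553 bp against 306, 942 and 1541 bp. In the brainstem Ptk2b had 709 bp in control and 1111 bp in K27M in culture 59, and 753 bp against no peak in culture 61. All 5 narrower regions carried H3K27me3 in all 6 libraries.

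**Figure D4:**
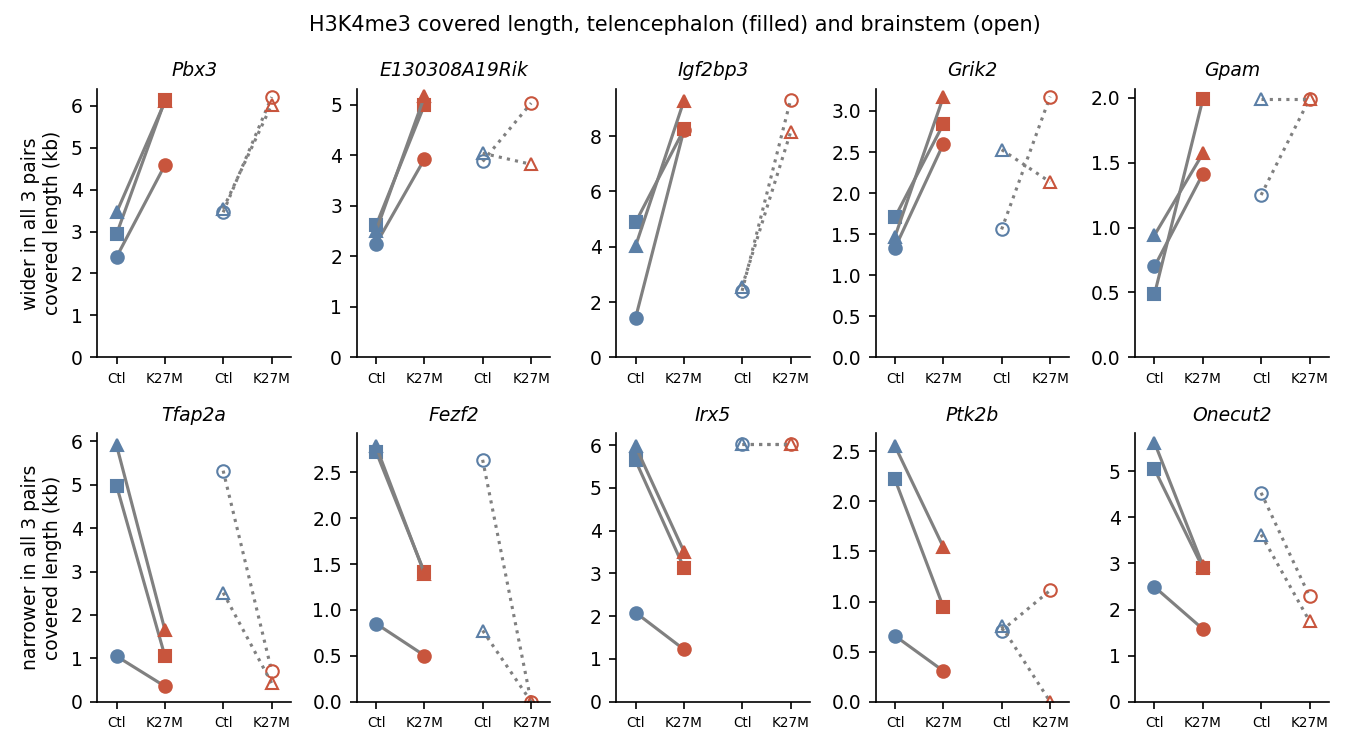
Covered length (y axis, kb, from 0) of the 5 named wider (top) and 5 named narrower (bottom) promoter regions in control (blue) and K27M (red) libraries, lines joining cultures (circle 59, square 60, triangle 61); filled symbols are telencephalon, open symbols brainstem, where lengths are counted within the telencephalon region. K27M is above control in all 3 telencephalon pairs of the top row and below it in all 3 of the bottom row, and both brainstem lines follow at Pbx3, Igf2bp3, Tfap2a, Onecut2 and Fezf2, the last ending with no peak in K27M.

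H3K27me3, a mark that the choice did not use, was common at narrower regions. It was called in all 6 libraries at 40 of 83 narrower regions (48.2%), against 7 of 145 wider regions (4.83%) and 693 of all 14329 (4.84%). When pair 59, 60 or 61 was left out, the share at narrower regions was between 25.6% and 27.6%, beside 4.58% to 6.70% of all regions. Of the 83 narrower regions, 24 were also lower in fold enrichment by 1.25 times in every pair, beside 289 of all 14329 regions (2.02%). Of these 24, 18 (75%) carried H3K27me3 in all 6 libraries. They included the promoters of Gbx2, Lhx4, Hlx, Lhx1, Pou4f1, Lef1, Foxf1 and Eomes, transcription factor genes of embryonic patterning. Of the 145 wider regions, 3 were also higher (Bmpr1b, Magel2 and Ido1), beside 323 of all 14329 regions (2.25%), and 0 were lower. None of those 3 carried H3K27me3 in all 6 libraries, which is too few to set beside 4.84% of all regions.

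The median over all promoter regions with H3K27me3 did not follow the same course in every pair. Promoter regions with H3K27me3 in both libraries of a pair had a median centred log2 width of 0.15 in culture 59, −0.33 in culture 60 and −0.26 in culture 61. Promoters with no H3K27me3 in the pair were at −0.01, 0.04 and 0.03. The difference was 0.16, −0.37 and −0.28 (mean −0.16 ± 0.29 SD, n = 3 pairs, exact sign-flip p = 0.5). For fold enrichment it was −0.08, −0.50 and −0.26 (exact p = 0.25, the smallest possible).

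**Figure D5:**
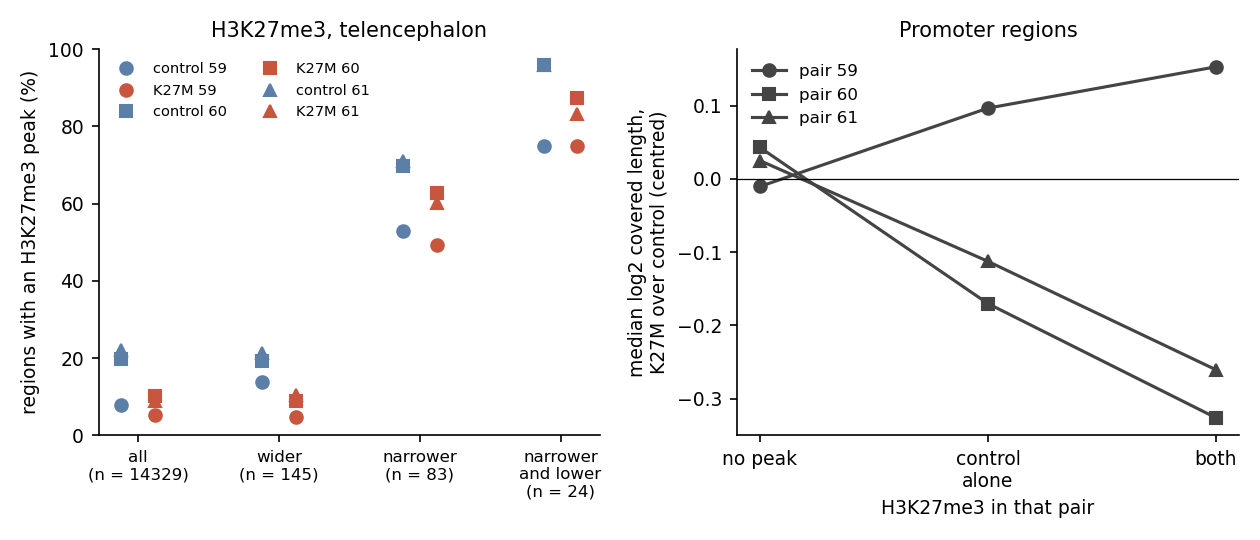
Left, share of regions with an H3K27me3 peak (y axis, %) in each telencephalon library (symbols) for all 14329 regions, wider, narrower, and narrower and lower regions (x axis). Right, median centred log2 covered length of promoter regions (y axis) by H3K27me3 in that pair (x axis), 1 line per pair. Narrower regions had shares of 49.4% to 71.1%, against 5.19% to 22.2% of all regions, and with H3K27me3 in both libraries pair 59 was at 0.15 while pairs 60 and 61 were at −0.33 and −0.26.

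Width changes recurred in the brainstem at some of these regions. Among the 125 wider regions with a peak in all 4 brainstem libraries, 55 (44%) were wider in both brainstem pairs, and among 71 narrower ones 32 (45.1%) were narrower in both, against 22.5% of all regions in either direction. By at least 1.25 times in both brainstem pairs, 15 of 125 (12%) were wider, beside 0.916% of all 13864, and 15 of 71 (21.1%) were narrower, beside 0.822%. The wider ones included Igf2bp3, Pbx3, Sox1, Tcf7l2, Fbxw7 and Cdon. The narrower ones included Tfap2a, Lhx1, Lhx4, Pou4f1, Onecut2, Lef1, Rnf220, Foxf1, Eomes, Cxcl2 and regions near Foxf2, Tal1, Emx1 and Tbca, and 14 of the 15 carried H3K27me3 in all 6 telencephalon libraries. Tcf7l2, a Wnt effector of oligodendrocyte maturation, was covered over 3666, 5937 and 5643 bp in control and 8680, 9382 and 9341 bp in K27M. Its fold enrichment was 5.19, 104 and 77.7 in control and 9.34, 35.8 and 47.8 in K27M.

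The named regions of lower fold enrichment were headed by developmental transcription factor genes. Eomes, a factor of intermediate progenitors, had 3.75, 58.4 and 31.4 in control and 2.36, 7.33 and 8.39 in K27M (centred log2 change −1.55, SE 0.40, adjusted p = 0.363). Lhx1, a LIM homeodomain factor, had 2.87, 33.0 and 34.0 against 1.91, 5.93 and 5.95. Within each culture K27M was lower at both genes, and in the brainstem both were lower in both pairs. Nxph4, a neurexin ligand gene, and Zfp532 were also in the named set, with log2 changes of −1.10 and −0.93.

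Among higher regions, Esr1, the estrogen receptor alpha gene, had 2.69, 6.22 and 9.93 in control and 8.57, 16.4 and 12.6 in K27M (log2 change 1.45, SE 0.46, adjusted p = 0.381). The shared promoter of Fbxo15 and Timm21 had 6.81, 10.4 and 21.4 against 19.1, 25.7 and 36.8 (log2 change 1.50, SE 0.30, adjusted p = 0.116). Both were higher in every culture before centring too. In the brainstem neither was higher in both pairs, with centred log2 changes of −0.57 and 0.09 at Esr1 and 0.20 and −0.06 at Fbxo15. Of 313 higher regions with a peak in all 4 brainstem libraries, 94 (30.0%) were higher in both brainstem pairs, beside 24.0% of all regions. Of 282 lower ones, 114 (40.4%) were lower in both, beside 25.2%. Fuom, Dcaf12 and Ankrd45 were higher by 1.02, 0.88 and 1.20 after centring. Before it, the log2 differences at Fuom were 1.49, 0.34 and 0.31, those at Dcaf12 1.57, 0.0011 and 0.16, and those at Ankrd45 1.45, −0.14 and 1.36.

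Across 18 lists of cell type, signalling and chromatin genes, with 266 entries in all, 0 genes were gained or lost. A peak in all 6 libraries was held by 178, beside 12357 of 20807 autosomal protein-coding genes. Of 181 entries with a width, 8 were wider and 7 narrower in all 3 pairs, beside 1.01% and 0.579% of all regions. In fold enrichment 1 was higher (Dkk2) and 11 were lower, beside 2.25% and 2.02%. The wider ones were Igf2bp2 and Igf2bp3, 2 of 5 oncofetal growth genes compared, together with Tcf7l2, the glutamate transporter gene Slc1a2, the proneural gene Neurod1, which stands in 2 lists, the BMP target Id1 and the Hedgehog co-receptor gene Cdon. Igf2bp2 was covered over 3004, 3854 and 4898 bp in control and 6546, 6530 and 7049 bp in K27M, again without overlap. The oncofetal list holds 7 genes, of which 2, Lin28a and Igf2bp1, could not be compared in width. Their peaks were called in control cultures 60 and 61 and in no K27M library, the opposite direction.

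The narrower ones were Gbx2, Irx3 and Irx5, 3 of 9 hindbrain and posterior factors compared, the Wnt pathway genes Lef1 and Dkk1, the Hedgehog ligand gene Dhh and the proneural gene Neurog1. The median log2 width was −0.39 over those 9 posterior factors and 0.03 over 12 forebrain factors, beside 0.01 over all regions. All 18 genes of the H3K4 methylation machinery had a peak in all 6 libraries and 0 were wider or narrower, with a median log2 width of −0.01. Of 13 PRC2 and Cbx genes compared 0 moved, with a median of 0.00.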

How the data were processed

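H3K4me3 and H3K27me3 were measured by ChIP-seq in telencephalon and brainstem OPC cultures, with an input for each ChIP. Per the labels and the study's methods, the authors trimmed reads with Trim Galore 0.6.7, aligned them to mm10 with BWA 0.7.17-r1188, called peaks library by library with MACS2 2.2.7.1, taking the matched input as background, and removed blacklisted regions. Versions come from the submitters' processing notes. The authors also removed samples with few H3K4me3 peaks, and a Drosophila spike-in was not used for the peaks. Deposited peak lists give fold enrichment, a linear ratio over local background, and −log10 p and q. They also hold the integer score that the authors' peak caller derives from q, which was not used here. Input tracks were not used here.

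Autosomal peaks of the 6 telencephalon H3K4me3 libraries were merged where they overlapped. A region was a promoter if it overlapped the window from 2000 bp before to 1000 bp after a GENCODE M21 transcript start. Each region was measured per library by covered bp and by its highest fold enrichment, log2-transformed with no pseudocount, centred on the library's median and fitted with limma 3.58.1 in R 4.3.3 (trend, robust, culture as a block, Benjamini-Hochberg, threshold 0.05). Only regions with a peak in all 6 libraries were fitted. Single values per library were tested with exact sign-flip permutation tests, all two-sided. The fit was tested on simulated data. Peak lists carry no reads, so the depth of a value is unknown and its precision is given by the spread between libraries. The submitters' totals of reads and duplicates per library entered no computation.

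Same-numbered cultures were treated as pairs, following the study's matched cultures. Deviations from group means correlated at 0.56, 0.20 and 0.35 over genes and 0.22, 0.05 and 0.10 over regions within cultures 59, 60 and 61. Mismatched cultures 60 and 61 reached 0.24 and 0.25 over genes and −0.04 and 0.12 over regions, so these values do not by themselves set cultures 60 and 61 apart as pairs.

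Named promoter gains were 10 gained regions at promoters of coding genes, and named distal gains and losses 5 regions each. They were those with the highest value of their lowest fold enrichment. Named width and enrichment changes were the 5 promoter regions with the largest smallest-pair change, of which 1 is not reported here. Other genes named (the brainstem overlaps, the regions both narrower and lower, and genes marked only in cultures 60 and 61) were chosen after their values were seen. Members and gene lists were chosen with earlier results of these data known, and the 1.25-fold limit after the data were examined. Sequences came from RefSeq GRCm38.p6. Alternatives covered peak thresholds, joining distance, promoter windows, centring, the block and leaving out each pair. Analyses used Python 3.11.15.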

Additional observations from a re-analysis of the deposited data

Results flagged for a closer look

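Fold enrichment at Dcaf12, a substrate receptor gene of a ubiquitin ligase, was higher in K27M in all 3 telencephalon pairs (mean centred log2 change 0.88) and lower in both brainstem pairs (−0.26 and −0.15), a gap of 1.09. At Ankrd45 it was higher in the telencephalon (1.20) and lower in both brainstem pairs (−0.26 and −0.74), a gap of 1.70. These directions hold after median-centring. Before it, the telencephalon pair of culture 60 was at −0.14 for Ankrd45 and 0.0011 for Dcaf12. The difference between the tissues was not tested.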

How the results depend on the processing

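Peak lists limit these results to where a peak passed its caller's threshold, and culture 59, with the weakest libraries, decided most counts. Leaving out each pair in turn gave 65 to 229 gained and 4 to 541 lost promoter regions, 368 to 1636 gained and 43 to 980 lost distal regions, and 46 to 140 gained and 7 to 382 lost genes, the highest values being without culture 59, where promoter losses (541) exceeded gains (229). Peaks with −log10 p of at least 6 gave 14 gained promoter regions, 10 lost distal regions and 0 lost genes. At 10 or more there were 83 gained distal regions, 2 lost distal regions and 0 lost genes. Requiring strong peaks on the gaining side gave 4 gained promoter regions, 14 gained and 0 lost distal regions. Joining peaks within 1000 bp gave 1 lost promoter region and 3 lost distal regions. Narrow promoters of 500 bp either side, and coding genes alone, left 0 lost genes, and coding genes alone left 8 gained. The distal peak number turned at −log10 p of at least 6, to a log2 ratio of −0.0196.

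limma called 0 regions under each alternative except without culture 59, where 56 were wider and 60 narrower, and 1066 were higher and 661 lower in fold enrichment; over the left-out pairs these counts began at 0. Of the 20 named width and enrichment changes 0 turned, Tfap2a width was −1.20 without culture 61, and 13 values passed the threshold without culture 59. For changes of 1.25 times in every pair, leaving out a pair gave 259 to 1535 wider, 177 to 2004 narrower, 585 to 3233 higher and 508 to 2831 lower regions, the highest each without culture 59. Without centring there were 347 wider, 36 narrower, 208 higher and 68 lower. With no replicate block, every K27M library against every control library, there were 41 wider, 5 narrower, 10 higher and 53 lower. The share of narrower regions with H3K27me3 in all 6 libraries was 25.6% to 27.6% when a pair was left out, and that of wider regions 0.847% to 3.86%. These alternatives on the 1.25-fold lists were chosen after seeing the data, as was leaving out the Prm1 and Prm2 region (22 gained promoter regions, 17 genes). The cause of these differences was not tested.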
